A study of Mus musculus with 18 samples.

Results

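The 33 genes described here encode the enzymes and regulators of cholesterol and fatty acid synthesis. They comprise 7 genes of the mevalonate steps, 11 of the squalene and sterol steps, 5 regulators, 1 sterol transport protein, 5 genes of fatty acid synthesis and 4 desaturases. They were taken by gene symbol from both deposited count tables, where all 33 were found among 41079 genes, and 28108 of those genes were counted in some library. Each of the 33 had fragments in all 18 libraries (the lowest count was 194, for Acss2) and passed the filter on low counts in every fit. RNA had been sequenced from c-Kit+ bone marrow cells of the mouse in 6 groups of 3 libraries. These were AE9a cells given C16, RE or the solvent DMSO, and wild-type (WT) cells given C16, RE or DMSO. AE9a is a truncated splice form of the leukaemic fusion of RUNX1 with RUNX1T1, and c-Kit is the receptor by which stem and progenitor cells of the marrow are selected. The study asked how transcripts of both genotypes respond when WDR5 and MLL1, a pair of partners in a histone methylating complex, are inhibited. The labels give neither which compound acts on which protein, nor its dose or duration, nor the age of the mice, how AE9a was introduced or which promoter drives it. They do not say that libraries came from separate animals or cultures, so p-values measure the spread between these libraries, which may be technical.

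Cells make cholesterol from acetyl-CoA through mevalonate, isoprenoids, squalene and a series of sterols, and make fatty acids from the same acetyl-CoA by carboxylation, chain building, elongation and desaturation. Both routes are driven by SREBP proteins, of which Srebf2 encodes the form that mainly serves sterol genes and Srebf1 the forms that serve fatty acid genes. SCAP carries SREBPs to the Golgi for activation when sterols are low, and the INSIG proteins hold them back when sterols are plentiful. Dividing blood progenitors need both products for new membranes.

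Library totals ran from 16053727 to 27207748 fragments. Runx1t1, whose counts mark the fusion, stood at 33.4 to 46.2 CPM (fragment counts scaled to a common library size by TMM) in AE9a DMSO libraries and at no more than 0.388 CPM in any WT library. In AE9a C16 libraries it reached only 0.211 to 4.22 CPM, below every AE9a DMSO library (log2 change -4.07, adjusted p = 4.44e-05 by edgeR). The mark of the fusion was thus low in all 3 AE9a C16 libraries, and the lowest, replicate 3, lay within the WT range. This check therefore does not bear out the genotype of the library labelled AE9a C16 3. That library also lay 0.469 and 0.492 (root mean square log2 difference over genes) from the other AE9a C16 libraries, which lay 0.216 from each other. The library labelled WT C16 2 lay 0.906 and 0.957 from the other WT C16 libraries but 0.513 to 0.53 from the 3 AE9a C16 libraries. It lay as near, at 0.517, to WT DMSO 2. Results that rest on either library are therefore also given without it. WT replicate 2 differed in cell type markers too: the 7 megakaryocyte genes summed to 315 to 555 CPM in the 3 WT replicate 2 libraries and to 2568 to 10610 CPM in the other 6 WT libraries. Kit, by which the cells had been selected, was detected in every library, from 59.6 CPM in a WT DMSO library to 1616 CPM in an AE9a RE library. Genes of fat, stroma and liver, tissues with high lipid synthesis, were near absent: the sum over 7 adipocyte and stromal genes was at most 6.08 CPM, and over 3 liver genes at most 2.84 CPM, in any library. Wdr5 was higher in AE9a C16 than in AE9a DMSO cells (log2 change 0.33, adjusted p = 0.000138), and Kmt2a, which encodes MLL1, was not called in that comparison (-0.05, adjusted p = 0.293).

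The promoters of these genes were examined first, because SREBPs act together with NF-Y and Sp1 at short elements near the start of sterol genes. RefSeq windows (GRCm38.p6), 34 in number, covered 26 of the 33 genes, and the 250 bases before each start were searched on both strands. A gene with several windows was counted as holding a motif if any of them held it. Windows of 6 genes are shown: 3 that were lower in C16 than in RE AE9a cells (Hmgcs1, chr13:119690101-119690350, plus strand; Mvk, chr5:114444019-114444268, plus strand; Srebf2, chr15:82147019-82147268, plus strand) and 3 that were higher (Fasn, chr11:120824548-120824797, minus strand; Elovl6, chr3:129532136-129532385, plus strand; Fads2, chr19:10101504-10101753, minus strand). Each is written 5′ to 3′ on the strand of its gene and ends at the base before the start. Capitals mark the NF-Y box CCAAT, read as ATTGG on the other strand, and in Hmgcs1 also the sterol response element.
Hmgcs1: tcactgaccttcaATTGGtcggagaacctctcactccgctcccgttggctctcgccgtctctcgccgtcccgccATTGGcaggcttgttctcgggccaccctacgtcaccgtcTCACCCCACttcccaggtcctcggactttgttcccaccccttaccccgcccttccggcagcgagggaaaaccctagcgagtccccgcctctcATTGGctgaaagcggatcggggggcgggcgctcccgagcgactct
Mvk: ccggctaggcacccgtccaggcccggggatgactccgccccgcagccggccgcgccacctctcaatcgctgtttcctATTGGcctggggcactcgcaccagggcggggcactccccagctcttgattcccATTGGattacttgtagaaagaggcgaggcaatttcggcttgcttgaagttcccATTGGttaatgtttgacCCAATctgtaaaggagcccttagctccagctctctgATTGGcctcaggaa
Srebf2: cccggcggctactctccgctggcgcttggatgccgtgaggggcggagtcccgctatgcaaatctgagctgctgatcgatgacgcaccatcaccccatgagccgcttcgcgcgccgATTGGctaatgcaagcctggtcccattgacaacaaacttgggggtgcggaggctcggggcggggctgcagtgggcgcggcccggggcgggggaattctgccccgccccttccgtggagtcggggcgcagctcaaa
Fasn: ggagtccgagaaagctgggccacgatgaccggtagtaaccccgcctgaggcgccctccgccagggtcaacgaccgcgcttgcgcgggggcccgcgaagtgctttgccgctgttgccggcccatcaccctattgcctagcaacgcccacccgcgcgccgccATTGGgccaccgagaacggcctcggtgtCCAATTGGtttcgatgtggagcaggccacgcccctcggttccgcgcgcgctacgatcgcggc
Elovl6: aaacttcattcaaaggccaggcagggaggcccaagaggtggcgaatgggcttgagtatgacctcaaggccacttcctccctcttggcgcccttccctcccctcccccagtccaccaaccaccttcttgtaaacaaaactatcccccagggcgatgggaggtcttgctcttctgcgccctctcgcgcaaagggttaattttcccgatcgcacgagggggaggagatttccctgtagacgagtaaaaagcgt
Fads2: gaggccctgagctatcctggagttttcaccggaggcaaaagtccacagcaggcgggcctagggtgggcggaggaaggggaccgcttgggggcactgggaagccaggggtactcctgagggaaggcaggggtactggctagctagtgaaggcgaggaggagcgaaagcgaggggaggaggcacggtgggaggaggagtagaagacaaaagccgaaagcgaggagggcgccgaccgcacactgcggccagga
The sterol response element, searched as TCACNCCAC, was found in the Hmgcs1 window, starting 137 bases before the gene start, and in no other of the 26 genes (3.85%), against 1.22% of 27025 genes with a window. The NF-Y box CCAAT was present in 20 of the 26 genes (76.9%), against 37.5% of all genes. In Dhcr7, Insig2, Pmvk and Srebf1 some windows held it and others did not. The Sp1 box GGGCGG was present in 22 (84.6%), against 35.4% of all genes. The E-box CACGTG was present in 5 (19.2%), against 6.86% of all genes. No match of one of these motifs overlapped a match of another in the windows of the 33 genes, though the NF-Y box can overlap its own reverse form, as it does in Fasn. Grouped after the fact by the C16 against RE comparison in AE9a cells described below, the NF-Y box was present in 13 of the 13 lower genes with a window and in 3 of the 8 higher ones (Fasn, Dhcr7 and Sc5d). The NF-Y box was absent from the windows of Acaca, Acly, Elovl6, Fads2 and Scap. The only Acaca window lies inside the gene and not at its outermost start, which was not searched. Acaca is nonetheless counted among the 26 genes and the 8 higher ones. The E-box was present in 3 of those 8 higher genes and in 0 of the 13 lower ones. Of the 5 genes not called in that comparison that have a window, 4 held the NF-Y box and 2 the E-box. These are matches of letters in short windows and not evidence of binding.

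Under DMSO the levels per exon length, which allow genes to be compared with each other, spanned a wide range (CPM per kilobase of exons, mean ± SD of 3 libraries). Fdps, the synthase of farnesyl diphosphate, was the most abundant per length, at 292 ± 7.14 in AE9a and 272 ± 36.9 in WT cells. Scd2, a stearoyl-CoA desaturase, followed at 175 ± 7.19 in AE9a and 248 ± 52.9 in WT cells, and its relative Scd1 stood at 17.6 ± 2.31 in AE9a and 31.8 ± 3.02 in WT cells. Hmgcs1, the HMG-CoA synthase that commits acetyl-CoA to the mevalonate route, stood at 112 ± 4.99 in AE9a and 101 ± 6.90 in WT cells. Insig2 was the least abundant, at 3.06 ± 0.182 in AE9a and 3.73 ± 0.303 in WT cells, far below Insig1 at 74.9 ± 2.60 in AE9a and 66.0 ± 0.326 in WT cells. Over all 18 libraries the highest CPM exceeded the lowest most for Scd1 (6.76-fold), Acss2 (5.81-fold) and Elovl6 (3.13-fold), and least for Insig1 (1.24-fold) and Ebp (1.26-fold). Without the library labelled AE9a C16 3 the widest ranges were 4.18-fold for Acss2, 3.90-fold for Scd1 and 3.11-fold for Elovl6.

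**Figure D1:**
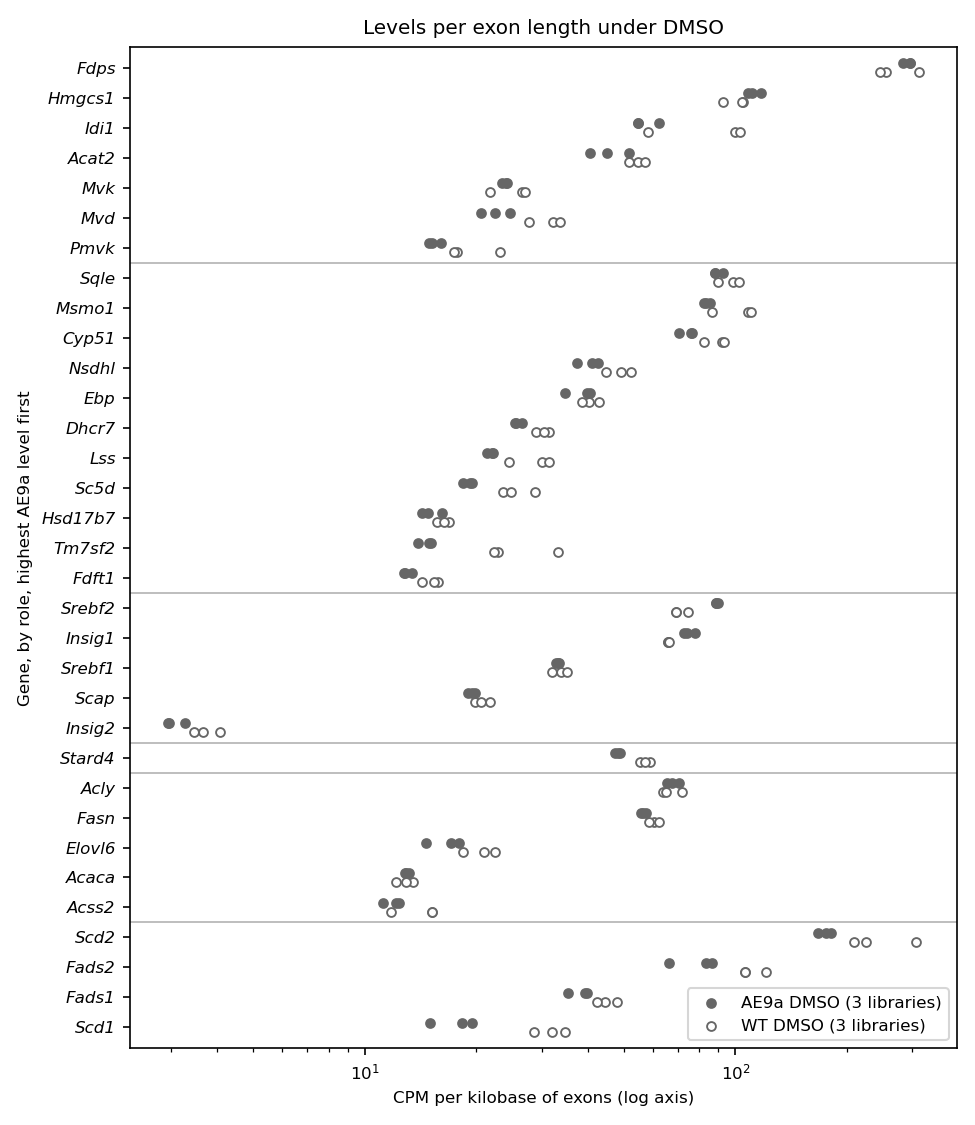
Levels of the 33 genes under DMSO in CPM per kilobase of exons (log axis), with 3 AE9a libraries as filled and 3 WT libraries as open circles, grouped by role. Fdps and Scd2 are the highest and Insig2 the lowest, and the AE9a circles of Srebf2 lie to the right of its WT circles.

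Under C16 in AE9a cells, the sterol regulator Srebf2 and several mevalonate and sterol enzymes were lower than under DMSO, the chain-building and elongating enzymes of fatty acid synthesis were higher, and Acss2 and Scd1 fell most. Of the 33 genes 17 were called (adjusted p under 0.05), 6 higher and 11 lower, or 51.5%. Among all 14704 genes tested 66.3% were called, 33.1% higher and 33.2% lower, so the number of calls does not set these genes apart. The C16 and DMSO libraries did not overlap in 21 of the 33 genes, beside 71.6% of all genes. The median log2 change of the 33 genes was -0.041, against 0.0027 for all genes. Changes were mostly small: the median absolute log2 change was 0.19 for the 33 genes and 0.43 for all genes. The 16 genes not called were Acat2, Mvd, Idi1, Fdps, Sqle, Lss, Cyp51, Tm7sf2, Sc5d, Ebp, Hsd17b7, Dhcr7, Scap, Insig1, Stard4 and Acly. Without AE9a C16 3, 16 of the same 17 genes were called in the same direction (64.8% of all genes), and Hmgcs1 was the one lost. With all 18 libraries in 1 fit 12 genes were called, 6 higher and 6 lower, and Hmgcs1, Mvk, Pmvk, Msmo1 and Insig2 were the ones lost (adjusted p from 0.121 to 0.268). In these bulk samples, fewer cells of a type and less RNA per cell cannot be told apart.

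Positions given here are gene spans in build GRCm39, per the deposited tables. Among the regulators, Srebf2 (chr15:82031455-82089580, plus strand) had 376, 389.7 and 368 CPM in the 3 AE9a C16 libraries, against 492, 499 and 490.5 CPM in the 3 AE9a DMSO libraries. All 3 C16 values lay below all 3 DMSO values, with little spread in either group (log2 change -0.43, SE 0.032, adjusted p = 4.07e-06). Srebf1 had 134, 142 and 142 CPM in C16 libraries, against 164, 163 and 161 CPM in DMSO libraries. It also fell without overlap (log2 change -0.27, SE 0.037, adjusted p = 0.000159). Insig2 had 17.5, 17.2 and 18.4 CPM in C16 libraries, against 20.8, 20.6 and 23.0 CPM in DMSO libraries (log2 change -0.33, SE 0.10, adjusted p = 0.0154), and its call was lost without AE9a DMSO 3 (adjusted p = 0.0532). Insig1, at 203, 207 and 193 CPM in C16 libraries and 193, 196 and 206 CPM in DMSO libraries, was not called, and its groups overlapped. Scap, at 97.8, 96.0 and 105 CPM in C16 libraries and 89.1, 91.6 and 93.5 CPM in DMSO libraries, was not called either (log2 change 0.072, SE 0.042, adjusted p = 0.16).

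Of the 7 genes of the mevalonate steps 3 were lower and none higher, and of the 11 squalene and sterol genes likewise 3 were lower and none higher. Mvk, the mevalonate kinase, had 33.8, 34.5 and 33.9 CPM in C16 libraries, against 42.8, 41.7 and 43.0 CPM in DMSO libraries (log2 change -0.37, SE 0.064, adjusted p = 0.000686). Pmvk, the kinase of the next step, had 42.8, 49.3 and 37.8 CPM in C16 libraries, against 54.8, 51.5 and 50.6 CPM in DMSO libraries (log2 change -0.32, SE 0.09, adjusted p = 0.0111). Both genes were lower in every C16 library than in any DMSO library. Hmgcs1 (chr13:120151887-120169796, plus strand) had 415, 479 and 389.9 CPM in C16 libraries, against 455, 467 and 496 CPM in DMSO libraries. Its groups overlapped and its call was marginal (log2 change -0.19, SE 0.075, adjusted p = 0.0477): it was lost without any one of AE9a C16 1, AE9a C16 3, AE9a DMSO 2 or AE9a DMSO 3 (adjusted p from 0.059 to 0.133). Among the later enzymes, Nsdhl, a sterol dehydrogenase, had 63.4, 73.8 and 72.6 CPM in C16 libraries, against 82.8, 91.1 and 94.4 CPM in DMSO libraries (log2 change -0.40, SE 0.068, adjusted p = 0.000584). Fdft1, the squalene synthase, had 103, 115 and 106 CPM in C16 libraries, against 133, 134 and 139 CPM in DMSO libraries (log2 change -0.37, SE 0.047, adjusted p = 0.000103). Of its exon length 7.43% overlaps Ctsb, and the strand was not used in counting. Msmo1, a sterol methyl oxidase, had 166, 176 and 173 CPM in C16 libraries, against 195, 191 and 199 CPM in DMSO libraries (log2 change -0.23, SE 0.042, adjusted p = 0.000875). In these 3 genes, too, the groups did not overlap. The squalene epoxidase Sqle kept close to its DMSO level, with 232, 246 and 237 CPM in C16 libraries and 242, 242 and 254 CPM in DMSO libraries, and was not called.

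The 5 genes of fatty acid synthesis moved in both directions, with 3 higher, 1 lower and Acly, the ATP citrate lyase, not called. Elovl6 (chr3:129326035-129432144, plus strand), which elongates saturated and monounsaturated fatty acids, had 214, 229 and 231 CPM in C16 libraries, against 107, 87.2 and 102 CPM in DMSO libraries. That was a 2.21-fold rise and the largest among the 33 genes in this comparison (log2 change 1.14, SE 0.076, adjusted p = 2.9e-06). Acaca, the acetyl-CoA carboxylase, had 208, 204 and 200.4 CPM in C16 libraries, against 138, 136 and 139.9 CPM in DMSO libraries (log2 change 0.52, SE 0.032, adjusted p = 2.44e-06). Fasn, the fatty acid synthase, had 846, 833 and 810.4 CPM in C16 libraries, against 589, 582 and 599.6 CPM in DMSO libraries (log2 change 0.44, SE 0.036, adjusted p = 7.11e-06). All 3 genes were higher in every C16 library than in any DMSO library. Acss2 (chr2:155359963-155404663, plus strand), which makes acetyl-CoA from acetate, had 15.2, 14.3 and 10.3 CPM in C16 libraries, against 31.6, 34.3 and 35.1 CPM in DMSO libraries. It fell 2.63-fold (log2 change -1.39, SE 0.15, adjusted p = 2.94e-05) and was lowest in AE9a C16 3, without which the log2 change was -1.25 (adjusted p = 1.16e-05).

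The desaturases were all called, 3 of them higher. Scd2 had 1357, 1503 and 1287 CPM in C16 libraries, against 989, 912 and 959 CPM in DMSO libraries (log2 change 0.49, SE 0.062, adjusted p = 0.000101). Fads2, the first desaturase of polyunsaturated fatty acid synthesis, had 341, 381 and 323 CPM in C16 libraries, against 251, 193 and 243 CPM in DMSO libraries (log2 change 0.56, SE 0.11, adjusted p = 0.00147). Fads1, the next desaturase of that route, had 159, 164 and 156 CPM in C16 libraries, against 141, 125 and 139 CPM in DMSO libraries (log2 change 0.19, SE 0.055, adjusted p = 0.0122), and its call was lost without AE9a C16 1 or AE9a DMSO 2 (adjusted p from 0.05 to 0.0703). Scd1 (chr19:44382889-44396148, minus strand) went the other way, with 47.6, 69.4 and 27.5 CPM in C16 libraries, against 94.0, 72.5 and 88.7 CPM in DMSO libraries (log2 change -0.86, SE 0.27, adjusted p = 0.0172). Its C16 libraries lay below its DMSO libraries but spread widely, with AE9a C16 3 the lowest, and without that library the log2 change was -0.59 (adjusted p = 0.00941). The ratio of Scd2 to Scd1 per exon length was 25.3, 19.2 and 41.5 in AE9a C16 1, 2 and 3 and 9.34 to 11.1 in AE9a DMSO libraries. Summed per exon length, the 9 fatty acid genes and desaturases stood at 0.648 ± 0.016 of the 18 mevalonate and sterol genes in AE9a C16 cells. This ratio was 0.437 ± 0.00665 in AE9a RE cells and 0.473 ± 0.019 in AE9a DMSO cells (SD, n = 3 each). The C16 libraries did not overlap the other AE9a libraries. Their sterol sum overlapped that of DMSO libraries (995 ± 47.1 and 1005 ± 34.2 CPM per kilobase). The fatty acid sum was 645 ± 39.3 in C16 and 475 ± 26.4 in DMSO cells. Abundant genes weigh most in such sums. In the sterol sum Fdps alone stood at 319 in AE9a C16 and 292 in AE9a DMSO cells. Scd2, at a mean of 240 over all 18 libraries, weighs most in the fatty acid sum. In WT cells the ratio was 0.566 ± 0.092 under C16 and 0.551 ± 0.071 under DMSO. It was 0.672 in WT C16 2 and 0.632 in WT DMSO 2.

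Cell type markers moved in the same libraries. The 9 mast cell and basophil genes summed to 1724, 2239 and 285 CPM in AE9a C16 1, 2 and 3 and to 9848 to 13534 CPM in AE9a DMSO libraries, with 8 lower and none higher. The 9 neutrophil genes summed to 1287 to 1598 CPM in AE9a C16 libraries and to 2931 to 3376 CPM in AE9a DMSO libraries, with 7 lower. The 9 stem and progenitor genes, Kit among them, summed to 837 to 1161 CPM in AE9a C16 libraries and to 2024 to 2535 CPM in AE9a DMSO libraries, with 3 higher and 2 lower. Of the 9 erythroid genes 1 was higher and 8 were lower in C16 cells, with a median log2 change of -4.15, although their sum was 748 to 815 CPM in AE9a C16 libraries and 644 to 666 CPM in AE9a DMSO libraries. Their part in the changes of the lipid genes was not tested.

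**Figure D2:**
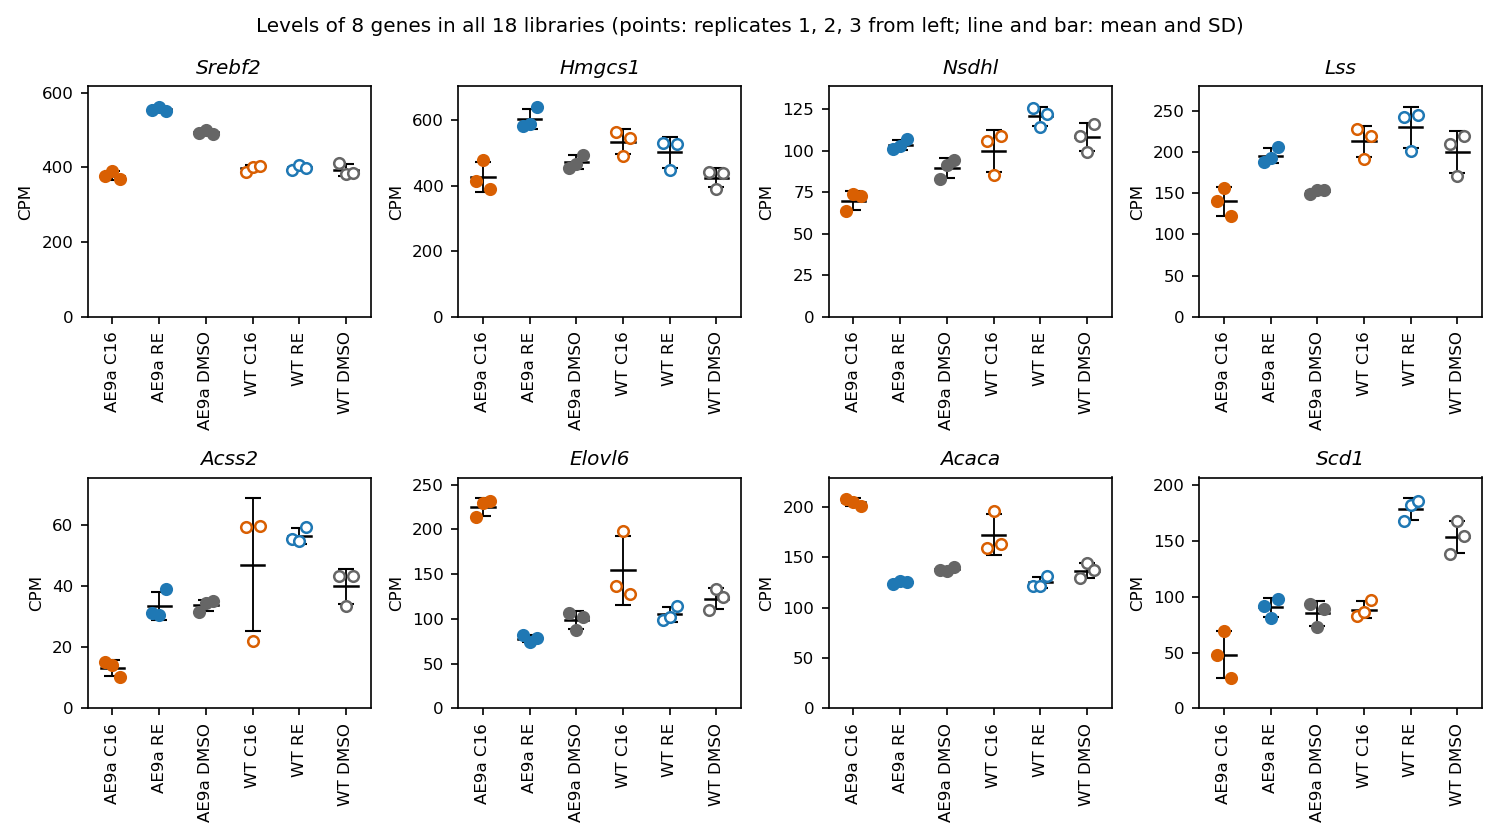
CPM of 8 genes in all 18 libraries, with AE9a as filled and WT as open circles, replicates 1 to 3 from left to right, and the mean and SD of each group in black. Nsdhl, Acss2 and Scd1 are lowest in the AE9a C16 libraries and Elovl6 and Acaca highest, and WT C16 replicate 2 stands apart from its group for Acss2 and Elovl6.

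RE in AE9a cells left most of these genes near their DMSO level, and the calls it gave leaned towards slightly higher sterol genes. Of the 33 genes 9 were called, 6 higher and 3 lower, or 27.3%, beside 29% of all 14704 genes tested (12.2% higher and 16.8% lower). The RE and DMSO libraries did not overlap in 16 of the 33 genes, beside 49.1% of all genes. The median log2 change was 0.031, against -0.0081 for all genes. Of the mevalonate genes 2 rose and of the squalene and sterol genes 3, with none lower in either group. Hmgcs1 had 584, 589 and 641 CPM in RE libraries, against the DMSO values above (log2 change 0.32, SE 0.075, adjusted p = 0.0142), and all 3 RE values were higher. Msmo1 had 229, 237 and 248 CPM in RE libraries (log2 change 0.25, SE 0.042, adjusted p = 0.00343). Lss, the lanosterol synthase that closes the sterol rings, had 188, 193 and 205 CPM in RE libraries, against 149, 154 and 154 CPM in DMSO libraries (log2 change 0.32, SE 0.079, adjusted p = 0.0164). Msmo1 kept its call whichever library was left out, whereas Hmgcs1 and Lss lost theirs without AE9a RE 3 or AE9a DMSO 1 (adjusted p from 0.0549 to 0.0624). Mvk (log2 change 0.22, adjusted p = 0.0321) and Fdft1 (log2 change 0.17, adjusted p = 0.0273) were called with all libraries but not when any of 4 libraries was left out: AE9a RE 3, AE9a DMSO 1 or AE9a DMSO 2 for both, AE9a DMSO 3 for Mvk and AE9a RE 2 for Fdft1 (adjusted p from 0.0663 to 0.0936).

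Among the regulators, Srebf2 had 554, 561 and 552 CPM in RE libraries, above every DMSO library but by a small step (log2 change 0.13, SE 0.031, adjusted p = 0.0147), and its call was lost without AE9a RE 2 or AE9a DMSO 3 (adjusted p from 0.0507 to 0.0517). Scap fell to 80.8, 83.3 and 82.3 CPM in RE libraries (log2 change -0.19, SE 0.042, adjusted p = 0.0101). Among the fatty acid genes 2 fell and none rose. Elovl6 had 81.5, 73.8 and 78.7 CPM in RE libraries, below every DMSO library (log2 change -0.38, SE 0.076, adjusted p = 0.0072). Acaca had 124, 126 and 126 CPM in RE libraries, likewise below every DMSO library (log2 change -0.18, SE 0.033, adjusted p = 0.00472). None of the 4 desaturases was called, and Scd1 had 91.7, 81.3 and 98.4 CPM in RE libraries. With the replicate number as a block over all AE9a libraries, Nsdhl (log2 change 0.17, adjusted p = 0.0219) and Insig2 (log2 change 0.24, adjusted p = 0.0486) were also called higher. In a separate check, deviations from the group means correlated between same-number RE and DMSO libraries (0.292 to 0.427). Between C16 and DMSO libraries, which also enter that fit, the lowest such value was 0.06. Without AE9a RE 3, and without AE9a DMSO 1, 5 of the 33 genes were called, and with all 18 libraries in 1 fit none of the 9 (adjusted p from 0.0517 to 0.449). Mast cell and basophil genes summed to 16919 to 19525 CPM in RE libraries, above the DMSO range given above, although none of those 9 genes was called. The 9 erythroid genes, of which 5 fell and none rose, summed to 454 to 470 CPM in RE and 644 to 666 CPM in DMSO libraries. Of 9 neutrophil genes 3 rose and none fell, with sums of 3585 to 4988 CPM in RE and 2931 to 3376 CPM in DMSO libraries, and of 8 monocyte and macrophage genes 3 fell and none rose, with sums of 458 to 727 CPM in RE and 853 to 874 CPM in DMSO libraries. Of the 9 stem and progenitor genes 1 rose and 4 fell, although their sum was 2654 to 3055 CPM in RE and 2024 to 2535 CPM in DMSO libraries. The part of these cells in the changes of the lipid genes was not tested.

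**Figure D3:**
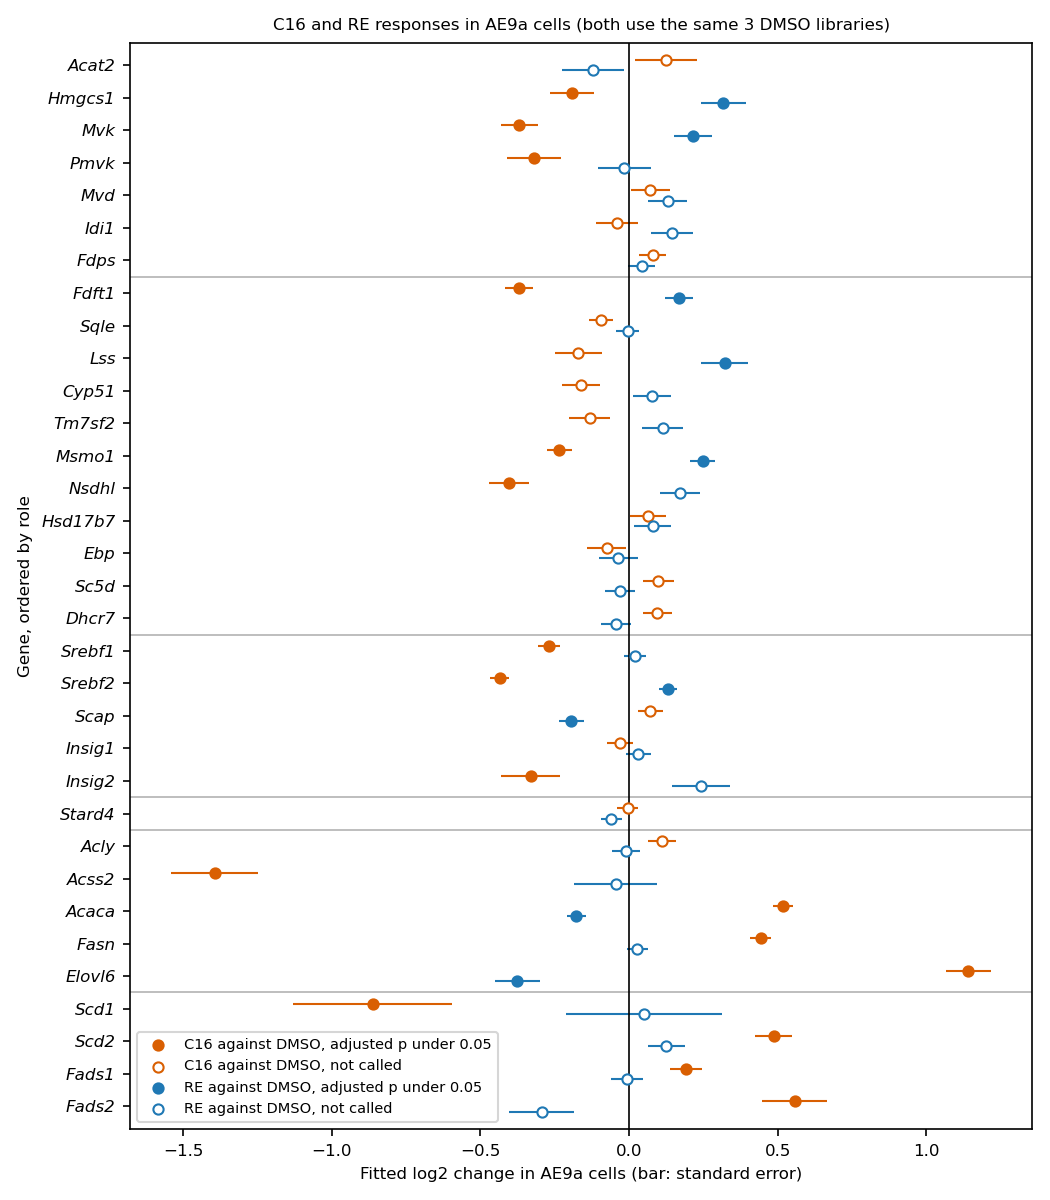
Fitted log2 change of the 33 genes in AE9a cells for C16 and RE, each against the same 3 DMSO libraries, with standard errors as bars and called genes as filled circles. Elovl6 at 1.14 and Acss2 at -1.39 are the extremes for C16, and the RE changes lie between -0.38 and 0.32.

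Set directly against each other in AE9a cells, C16 and RE differed in 25 of the 33 genes, 10 higher and 15 lower in C16 cells, or 75.8%. Among all 14704 genes tested 74.6% were called, 37.5% higher and 37.2% lower, so this share, too, is that of genes at large. The C16 and RE libraries did not overlap in 25 of the 33 genes, beside 77.8% of all genes. This contrast uses no DMSO level. Srebf2 was lower in C16 than in RE cells in every library, by the values given above (log2 change -0.57, SE 0.032, adjusted p = 3.61e-07). Insig2 had 17.5, 17.2 and 18.4 CPM in C16 libraries, against 22.5, 26.2 and 29.5 CPM in RE libraries (log2 change -0.57, SE 0.10, adjusted p = 0.00056). Srebf1 was also lower in C16 cells, and Scap was the regulator that was higher (log2 change 0.27, adjusted p = 0.00032). Insig1 was not called.

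In the mevalonate steps 4 of 7 genes were lower in C16 than in RE cells and none higher: Hmgcs1, Mvk, Pmvk and Idi1, the isomerase that makes the starter of isoprenoid chains. Mvk, with 33.8, 34.5 and 33.9 CPM in C16 libraries, against 48.8, 47.5 and 55.7 CPM in RE libraries, had the largest difference of these (log2 change -0.58, SE 0.064, adjusted p = 2.34e-05). Hmgcs1 followed (log2 change -0.51, SE 0.076, adjusted p = 0.000195), its call held by every leave-one-out fit. In the squalene and sterol steps 6 of 11 genes were lower in C16 cells: Nsdhl, Fdft1, Lss, Msmo1, Cyp51, the lanosterol demethylase, and Tm7sf2, a sterol reductase. Nsdhl had 63.4, 73.8 and 72.6 CPM in C16 libraries, against 101, 103 and 107 CPM in RE libraries (log2 change -0.58, SE 0.068, adjusted p = 4.07e-05). The other differences were -0.54 for Fdft1, -0.49 for Lss and -0.48 for Msmo1 on the log2 scale. The late enzymes Sc5d, a sterol desaturase, and Dhcr7, a sterol reductase, were called higher in C16 cells, Sc5d not so with the replicate block (log2 change 0.13, adjusted p = 0.0538), which added Acat2 (log2 change 0.24, adjusted p = 0.0062). The calls of Idi1, Sc5d and Dhcr7, and that of Acly below, were the least stable: Idi1 lost its call without AE9a C16 2, AE9a C16 3, AE9a RE 2 or AE9a RE 3, Dhcr7 and Acly without AE9a C16 1, AE9a C16 2, AE9a RE 1 or AE9a RE 2, and Sc5d without any of these but AE9a RE 3 (adjusted p from 0.053 to 0.206).

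Among the fatty acid genes, Elovl6 showed the largest difference of all 33 genes: C16 libraries exceeded RE libraries 2.86-fold (log2 change 1.52, SE 0.077, adjusted p = 2.53e-07). Acaca was 1.62-fold higher (log2 change 0.70, SE 0.033, adjusted p = 1.99e-07), and Fasn (log2 change 0.42, adjusted p = 5.02e-06) and Acly were higher as well. Acss2 was 2.55-fold lower in C16 than in RE cells (log2 change -1.35, SE 0.15, adjusted p = 2.3e-05), where RE libraries held 31.1, 30.6 and 38.9 CPM. Among the desaturases Fads2 was 1.80-fold higher, with 341, 381 and 323 CPM in C16 libraries, against 211, 175 and 189 CPM in RE libraries (log2 change 0.85, SE 0.11, adjusted p = 7.31e-05). Scd2 (log2 change 0.36, adjusted p = 0.000507) and Fads1 were also higher, and Scd1 was lower (log2 change -0.91, SE 0.27, adjusted p = 0.0114). Without AE9a C16 3, 23 of these 25 genes were called in the same direction (73.4% of all genes), with Idi1 and Sc5d lost and a Scd1 difference of -0.64 (adjusted p = 0.00518). Marker genes differed in the same libraries. The mast cell and basophil genes, with 8 of 9 lower in C16 cells, summed to 1724, 2239 and 285 CPM in AE9a C16 1, 2 and 3, against 16919 to 19525 CPM in RE libraries. All 7 megakaryocyte genes were lower, at 60.3 to 154 CPM in C16 and 434 to 553 CPM in RE libraries, as were 7 of 9 neutrophil genes, at 1287 to 1598 CPM in C16 and 3585 to 4988 CPM in RE libraries. Of 9 erythroid genes 1 was higher and 8 lower, with sums of 748 to 815 CPM in C16 and 454 to 470 CPM in RE libraries, and of 9 stem and progenitor genes 5 were higher and 3 lower, with sums of 837 to 1161 CPM in C16 and 2654 to 3055 CPM in RE libraries. Of 8 monocyte and macrophage genes 3 were higher and none lower, at 799 to 1126 CPM in C16 and 458 to 727 CPM in RE libraries. Their part in these differences was not tested.

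**Figure D4:**
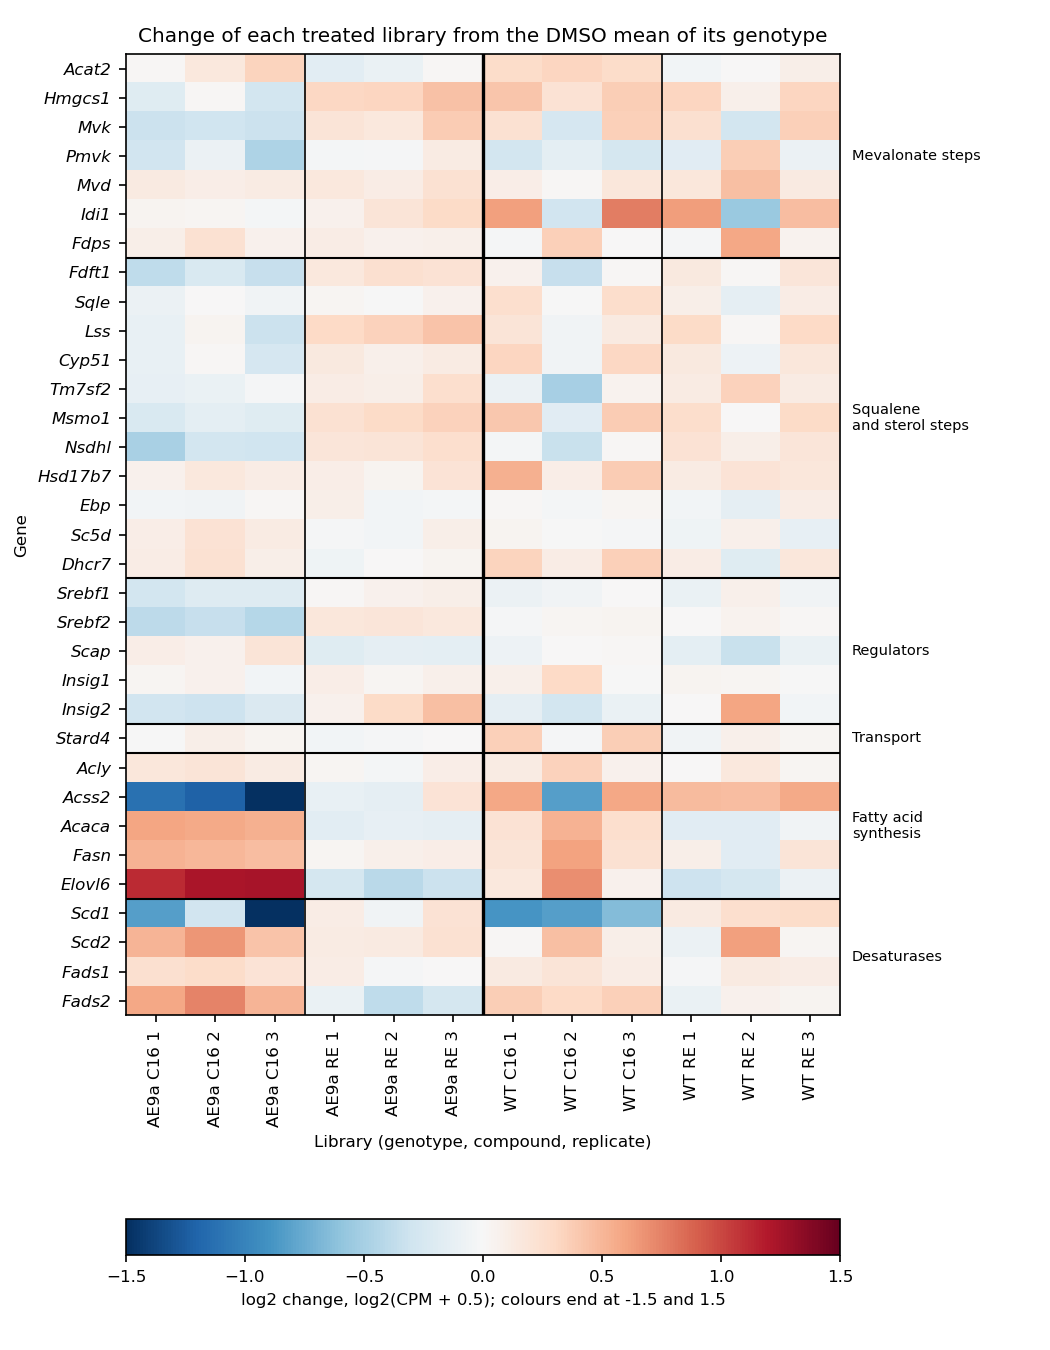
Change of each of the 33 genes in each treated library from the DMSO mean of its genotype, on the log2 scale of CPM + 0.5 (red higher, blue lower, colours ending at 1.5 in either direction). AE9a C16 columns show Srebf2, Acss2 and Scd1 in blue and Elovl6, Acaca, Fasn and Fads2 in red, and the column of WT C16 2 differs from those of WT C16 1 and 3 in Idi1, Acss2 and Elovl6.

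WT cells showed 1 call among the 33 genes under C16, the desaturase Scd1, or 3.03%, beside 3.1% of all 15046 genes tested (0.957% higher and 2.15% lower). The C16 and DMSO libraries did not overlap in 10 of the 33 genes, beside 29.5% of all genes, and the median log2 change was 0.15, against 0.011 for all genes. Scd1 had 82.6, 86.0 and 97.0 CPM in WT C16 libraries, against 138, 168 and 155 CPM in WT DMSO libraries. All 3 C16 libraries were lower, by 1.73-fold in the fit (log2 change -0.79, SE 0.10, adjusted p = 0.0183), although the call was lost without any one of WT C16 1, WT C16 3, WT DMSO 1 or WT DMSO 3 (adjusted p from 0.0853 to 0.101). The low count goes with a wide spread between WT libraries, whose coefficient of biological variation was 0.329, against 0.103 in AE9a libraries. With the replicate number as a block the coefficient in WT libraries was 0.137. The correlations of deviations set WT replicate 2 apart in each group but cannot show that replicates 1 and 3 pair by number. By root mean square log2 difference, WT C16 1 lay 0.56 from WT DMSO 1 and 0.572 from WT DMSO 3. WT C16 3 lay 0.61 and 0.612 from these. With the number as a block 7 of the 33 genes were called, 6 higher and 1 lower, beside 24.2% of all genes (10.4% higher and 13.8% lower). Besides Scd1 these were Acat2, Hmgcs1, Idi1, Dhcr7, Acaca and Fads2, all higher in WT C16 cells. Hmgcs1 had 565, 492 and 546 CPM in WT C16 libraries, against 443, 391 and 439.6 CPM in WT DMSO libraries. Every C16 library was higher than any DMSO library, and the log2 change of 0.34 had an adjusted p of 0.114 without the block and 0.0124 with it.

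Against the WT DMSO mean, the WT C16 libraries differed among themselves. Over the 18 mevalonate and sterol genes, the median log2 change from the WT DMSO mean was 0.21 in WT C16 1, -0.039 in WT C16 2 and 0.22 in WT C16 3, with 14, 6 and 16 genes above that mean in these libraries. Against the DMSO library of the same number, a comparison added after the data were seen, the medians were 0.15 in WT C16 1, 0.053 in WT C16 2 and 0.25 in WT C16 3, with 15, 10 and 14 of the 18 genes higher. Idi1 had 371, 198 and 411 CPM in WT C16 1, 2 and 3, against 286, 167 and 295 CPM in WT DMSO 1, 2 and 3. Msmo1 had 312, 209 and 307 CPM in the same C16 libraries, against 251, 201 and 257 CPM in the DMSO libraries. In both genes replicate 2 was the lowest of its group under either condition, and each C16 library was above the DMSO library of its own number. Acss2 had 59.4, 22.0 and 59.6 CPM in WT C16 libraries, against 43.2, 33.4 and 43.1 CPM in WT DMSO libraries, so that it was above the DMSO library of the same number in replicates 1 and 3 and below it in replicate 2. Elovl6 had 136, 198 and 128 CPM in WT C16 libraries, against 109.7, 134 and 125 CPM in WT DMSO libraries, with replicate 2 the highest under C16. With WT replicates 1 and 3 only, 18 of the 33 genes were called, 17 higher and 1 lower, beside 41.7% of all genes (20.8% higher and 20.9% lower). These included Hsd17b7, a sterol ketoreductase (log2 change 0.49, adjusted p = 0.000457), Stard4, a cholesterol carrier (log2 change 0.39, adjusted p = 0.000437), and Scd1 (log2 change -0.70, adjusted p = 0.000372). Without WT C16 2 alone, 5 were called, beside 8.58% of all genes: Hsd17b7, Stard4, Acss2 and Fads2 higher and Scd1 lower. The 7 megakaryocyte genes summed to 9480, 315 and 10610 CPM in WT C16 1, 2 and 3 and to 2890, 393 and 2568 CPM in WT DMSO 1, 2 and 3, but 0 of them were called. Called lower in WT C16 than in WT DMSO cells were 3 of 6 tested B lineage, 2 of 8 monocyte and macrophage and 1 of 9 neutrophil genes. No marker gene was called higher, and the part of these cells was not tested.

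**Figure D5:**
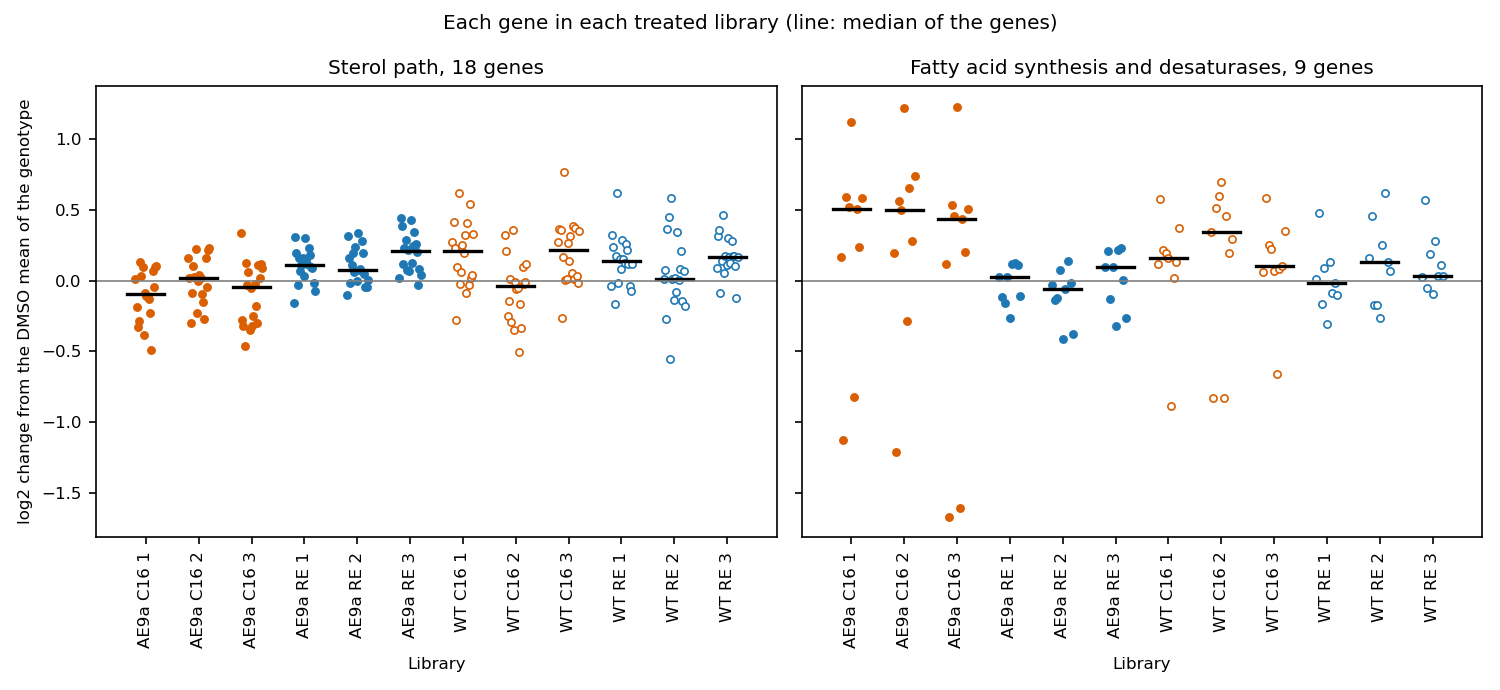
Log2 change of each gene from the DMSO mean of its genotype, in each of the 12 treated libraries, for the 18 mevalonate and sterol genes (left) and the 9 fatty acid genes and desaturases (right), with the median of the genes as a black line. Among the C16 libraries, the median of the sterol genes is 0.21 and 0.22 in WT C16 1 and 3 and near 0 or below in WT C16 2 and in the AE9a C16 libraries. WT replicate 2 stands apart from the other WT replicates under DMSO as well, so its distance from the DMSO mean is not its change from its own DMSO library.

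RE in WT cells gave 0 calls among the 33 genes by edgeR and 0 by DESeq2, beside 0.0266% of all 15046 genes by edgeR, and 1 of the 33 genes had an unadjusted p under 0.05. The RE and DMSO libraries did not overlap in 6 of the 33 genes, beside 13.1% of all genes. With the replicate block the count was also 0 (0.512% of all genes), and with WT replicates 1 and 3 only it was 3 (8.02% of all genes), with Hmgcs1, Tm7sf2 and Acss2 higher. Hmgcs1 had 531, 447 and 528 CPM in WT RE libraries, and Acss2 had 55.3, 54.6 and 59.2 CPM there, both above the DMSO value of the same replicate in all 3 replicates. Scd1 had 168, 182 and 186 CPM in WT RE libraries. Against the DMSO library of the same number, the 18 mevalonate and sterol genes had median log2 changes of 0.12, 0.063 and 0.16 in WT RE 1, 2 and 3. Over all tested genes these medians were 0.0013, 0.027 and 0.00033. Of the 18 genes, 15, 10 and 17 were higher there, beside 14, 18 and 16 in AE9a RE 1, 2 and 3. This comparison was added after the data were seen.

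C16 against RE in WT cells gave 4 calls, 3 higher and 1 lower, or 12.1%, beside 11.9% of all genes (5.4% higher and 6.49% lower). The C16 and RE libraries did not overlap in 10 of the 33 genes, beside 35.1% of all genes. Scd1 was 2.01-fold lower in WT C16 than in WT RE cells (SE 0.10 on the log2 scale, adjusted p = 0.00447), a call held by every leave-one-out fit. Acaca had 159, 196 and 163 CPM in WT C16 libraries, against 122, 121 and 132 CPM in WT RE libraries (log2 change 0.47, SE 0.10, adjusted p = 0.0253). Fads2 had 417, 396 and 413 CPM in WT C16 libraries, against 301, 338 and 331 CPM in WT RE libraries (log2 change 0.35, SE 0.087, adjusted p = 0.0427). Acat2, the thiolase at the head of the mevalonate route, had 136, 141 and 137 CPM in WT C16 libraries, against 109.8, 114 and 120.2 CPM in WT RE libraries (log2 change 0.28, SE 0.071, adjusted p = 0.0428). These 3 genes did not overlap between groups, but Acaca lost its call in 4, Fads2 in 5 and Acat2 in all 6 of the leave-one-out fits (adjusted p from 0.0515 to 0.157). With the replicate block 7 genes were called (34.2% of all genes), and with WT replicates 1 and 3 only 12 (44.3% of all genes). The block kept the 4 calls and added Elovl6 (log2 change 0.54, adjusted p = 0.0212), Dhcr7 and, lower in C16 cells, Nsdhl. Without WT C16 2, 5 genes were called (13.9% of all genes), with Acat2 lost and Hsd17b7 and Stard4 added. In AE9a cells, too, Scd1 was lower and Fads2 and Acaca were higher in C16 than in RE cells, whereas Acat2 was not called there. That fit called 74.6% of all genes, so the match of these 3 genes does not set them apart. Of the marker genes, 4 of 6 tested B lineage, 2 of 8 monocyte and macrophage and 1 of 9 neutrophil genes were lower in WT C16 than in WT RE cells. Higher were 2 of 9 stem and progenitor genes, and of 8 tested erythroid genes 1 was higher and 1 lower. Their part was not tested.

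Under DMSO most of the genes called between the genotypes were lower in AE9a than in WT cells. All 4 desaturases were called lower, but only 1 of 7 mevalonate and 4 of 11 squalene and sterol genes. Of the 33 genes 11 were called, 1 higher and 10 lower in AE9a cells, or 33.3%, beside 26.7% of all 15809 genes (12.9% higher and 13.8% lower). The genotypes did not overlap in 21 of the 33 genes, beside 47.7% of all genes. With RLE scaling the split was 2 higher and 7 lower. The median log2 difference was -0.24, against -0.054 for all genes. Srebf2 was the gene that was higher, with 492, 499 and 490.5 CPM in AE9a DMSO libraries, against 413, 382 and 384 CPM in WT DMSO libraries (log2 change 0.33, SE 0.048, adjusted p = 0.000185). Tm7sf2 had 20.6, 22.0 and 22.3 CPM in AE9a DMSO libraries, against 33.8, 49.1 and 33.1 CPM in WT DMSO libraries (log2 change -0.84, SE 0.15, adjusted p = 0.00104), and WT DMSO 2 was the highest. Sc5d had 95.03, 90.6 and 96.1 CPM in AE9a DMSO libraries, against 116, 142 and 122 CPM in WT DMSO libraries (log2 change -0.44, SE 0.074, adjusted p = 0.000574). Mvd, the mevalonate diphosphate decarboxylase, had 42.0, 38.5 and 45.9 CPM in AE9a DMSO libraries, against 60.2, 62.8 and 51.7 CPM in WT DMSO libraries (log2 change -0.47, SE 0.095, adjusted p = 0.00211); 28.7% of its exon length overlaps Gm53466. Fads2 had 251, 193 and 243 CPM in AE9a DMSO libraries, against 309, 352 and 309 CPM in WT DMSO libraries (log2 change -0.50, SE 0.10, adjusted p = 0.00237). In these 5 genes the genotypes did not overlap, and each call held in all 6 leave-one-out fits.

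All 4 desaturases were lower in AE9a cells. Scd1 had 94.0, 72.5 and 88.7 CPM in AE9a DMSO libraries, against the WT DMSO values above (log2 change -0.85, SE 0.22, adjusted p = 0.0115), a 1.81-fold difference whose call was lost without AE9a DMSO 2 (adjusted p = 0.0616). Scd2 (log2 change -0.50, adjusted p = 0.0495), Fads1 (log2 change -0.23, adjusted p = 0.0166), Lss (log2 change -0.39, adjusted p = 0.0163), Nsdhl (log2 change -0.27, adjusted p = 0.0421) and Stard4 (log2 change -0.24, adjusted p = 0.0398) were also called lower. Their calls were less stable: Fads1 lost its call in 2, Lss in 3, Scd2 and Nsdhl in 5 and Stard4 in all 6 of the leave-one-out fits (adjusted p from 0.0565 to 0.233). With WT replicates 1 and 3 only, all 11 kept their call and direction and 22 of the 33 genes were called, 3 higher and 19 lower, beside 50.7% of all genes (24.8% higher and 25.9% lower). Marker genes differed as well. Of 9 mast cell and basophil genes 7 were higher and 1 lower in AE9a cells, at 9848 to 13534 CPM in AE9a DMSO and 2023 to 3491 CPM in WT DMSO libraries. Of 9 erythroid genes 5 were higher and 1 lower, at 644 to 666 CPM in AE9a DMSO and 471 to 499 CPM in WT DMSO libraries. Of 9 stem and progenitor genes 2 were higher and 3 lower, although their sum was 2024 to 2535 CPM in AE9a DMSO and 775 to 1176 CPM in WT DMSO libraries. Lower in AE9a cells, with none higher, were 2 of 7 megakaryocyte, 2 of 9 neutrophil, 3 of 8 monocyte and macrophage and 2 of 6 tested B lineage genes. Their part in the differences of the lipid genes was not tested.

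The C16 response differed between the genotypes in 4 of the 33 genes, 1 higher and 3 lower in AE9a cells, or 12.1%, beside 13.1% of all 15809 genes (4.78% higher and 8.29% lower). The difference tested here is the log2 change from DMSO in AE9a cells minus that in WT cells, over all 18 libraries. For Srebf2 it was -0.40 (adjusted p = 0.00204), with all 3 AE9a C16 libraries below the AE9a DMSO libraries and WT C16 libraries at 388, 401 and 404 CPM, among the WT DMSO libraries. For Elovl6 it was 0.86 (adjusted p = 0.0112), a 1.81-fold stronger rise in AE9a cells. Both calls held in all 12 leave-one-out fits. For Acss2 it was -1.58 (adjusted p = 0.0173), with a fall in every AE9a C16 library and, in WT cells, a higher level in C16 replicates 1 and 3 and a lower one in replicate 2; the call was lost without WT C16 1 or WT C16 3 (adjusted p from 0.0515 to 0.0517). For Hmgcs1 it was -0.47 (adjusted p = 0.029), lost in 7 of the 12 leave-one-out fits (adjusted p from 0.0581 to 0.0743): those without AE9a C16 1, AE9a C16 3, AE9a DMSO 2, AE9a DMSO 3, WT C16 1, WT C16 3 or WT DMSO 2. Without AE9a C16 3 the other 3 genes were called (8.55% of all genes). By the same test 6 of 9 erythroid and 3 of 9 mast cell and basophil genes had a lower response in AE9a cells and none a higher one, and their part was not tested.

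The number of genes with a genotype difference depended on WT replicate 2. With the replicate number within genotype as a block 11 genes were called, 2 higher and 9 lower, beside 36.8% of all genes (19.4% higher and 17.4% lower). The added genes were Mvk, Idi1, Sqle, Cyp51, Msmo1 and Nsdhl, all lower in AE9a cells, and Scd2, higher. Without WT C16 2 there were 14 calls, 3 higher and 11 lower, beside 39.3% of all genes (22.4% higher and 16.9% lower), and Msmo1 then differed by -0.57 (adjusted p = 0.0041), Sqle by -0.30 (adjusted p = 0.0237) and Fdft1 by -0.35 (adjusted p = 0.00511). With WT replicates 1 and 3 only there were 19, 5 higher and 14 lower, beside 49.8% of all genes (28.9% higher and 21% lower). The 4 genes called with all libraries were called in the same direction in each of these 3 fits. The RE response gave 0 calls for a genotype difference by edgeR and 0 by DESeq2, as among all genes (0%), and 0 of the 33 genes had an unadjusted p under 0.05.

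Of 28 further genes of lipid supply, uptake and export that are not among the 33, 27 were tested in each fit. In AE9a cells 8 rose and 8 fell under C16, 8 rose and 4 fell under RE, and 7 were higher and 13 lower in C16 than in RE cells. These are 59.3%, 44.4% and 74.1% of the 27, beside 66.3%, 29% and 74.6% of all genes tested, so the C16 shares are near or below those of genes at large and the RE share lies above. In WT cells 1 rose and 2 fell under C16, 0 were called under RE, and 1 was higher and 4 lower in C16 than in RE cells, which is 11.1% under C16 and 18.5% against RE, beside 3.1% and 11.9% of all genes. Under DMSO 3 were higher and 7 lower in AE9a than in WT cells (37%, beside 26.7% of all genes). Lpin1, a phosphatidate phosphatase and itself an SREBP target, fell most of the 6 named here under C16 in AE9a cells, with a log2 change of -2.75 (SE 0.20, adjusted p = 4.57e-06). Mylip, a ubiquitin ligase that marks lipoprotein receptors for decay, changed by -1.16 (SE 0.11, adjusted p = 1.54e-05), and Lpcat3, a phospholipid acyltransferase, by -0.80 (SE 0.05, adjusted p = 2.47e-06). Npc1, which exports cholesterol from lysosomes, changed by -0.40 (SE 0.054, adjusted p = 0.000148). Acsl3, an acyl-CoA synthetase, and Elovl5, an elongase of polyunsaturated fatty acids, were higher, by 0.72 (SE 0.10, adjusted p = 0.000131) and 0.38 (SE 0.033, adjusted p = 9.41e-06). Under RE, Mylip changed by 0.46 (SE 0.10, adjusted p = 0.0105), Lpcat3 by 0.33 (SE 0.05, adjusted p = 0.00201), Npc1 by 0.26 (SE 0.054, adjusted p = 0.00866), Acsl3 by -0.47 (SE 0.10, adjusted p = 0.00886) and Elovl5 by -0.17 (SE 0.033, adjusted p = 0.00596), against the same DMSO libraries, and Lpin1 was not called.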

How the data were processed

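The deposited files hold raw fragment counts per gene, as whole numbers, in 1 table for AE9a and 1 for WT libraries. Per the submitters' processing notes, reads passed FastQC 0.11.9, fastp 0.23.2, HISAT2 2.1.0 and featureCounts 2.0.3 with build GRCm39. Per the file headers, featureCounts 1.6.2 counted read pairs over exons from primary alignments without strand; the versions differ, and 9 of the 33 genes overlap exons of another gene. The 33 genes and all lists were chosen with earlier results of these data known. Fold changes were printed for called genes and 10 fixed ones.

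Counts were filtered by filterByExpr, scaled by TMM and tested by edgeR 4.0.16 (R 4.3.3) quasi-likelihood F tests, within the 9 libraries of a genotype or, between genotypes, over all 18, with Benjamini-Hochberg adjustment over all tested genes and a threshold of 0.05. Alternatives were DESeq2 1.42.0, limma 3.58.1 voom, other scalings and filters, replicate blocks and left-out libraries. Library totals of 16053727 to 27207748 limit precision, and no molecular identifiers are named. Replicate numbers were checked by correlating deviations from group means: all 3 same-number values exceeded 0.1 between WT groups (0.562 to 0.866), AE9a RE and DMSO (0.292 to 0.427) and AE9a C16 and RE (0.129 to 0.133), but not between AE9a C16 and DMSO (0.06 to 0.307) or the genotypes (-0.153 to -0.04). Because replicate 2 is set apart in each WT group, the WT values cannot show that replicates 1 and 3 pair by number. Vpreb1 was not analysed here.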

Additional observations from a re-analysis of the deposited data

Results flagged for a closer look

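For 4 of the 33 genes the C16 response differed between genotypes by the test of the difference itself, the log2 change from DMSO in AE9a cells minus that in WT cells (edgeR, Benjamini-Hochberg over 15809 genes). The differences were -1.58 for Acss2 (SE 0.39), -0.47 for Hmgcs1 (SE 0.13), -0.40 for Srebf2 (SE 0.068) and 0.86 for Elovl6 (SE 0.19). In AE9a cells the changes from DMSO in C16 libraries 1, 2 and 3 were -1.12, -1.21 and -1.67 for Acss2 and 1.12, 1.22 and 1.23 for Elovl6. In WT cells they were 0.58, -0.83 and 0.58 for Acss2 and 0.16, 0.70 and 0.067 for Elovl6. For Acss2, WT C16 2 moved the way of the AE9a libraries, and for Elovl6 it had the largest change of the 3 WT libraries. These changes are from the DMSO mean of the genotype; from the DMSO library of the same number, WT C16 1, 2 and 3 changed by 0.46, -0.59 and 0.46 for Acss2 and by 0.31, 0.57 and 0.039 for Elovl6. The share of genes with such a difference, 12.1%, was near that of all genes, 13.1%.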

How the results depend on the processing

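For 78 results of single genes, the 71 called and 7 others, the alternatives gave 1254 values, of which 1090 kept direction and call, 157 lost the call, 7 gained it and 0 changed sign; calls gained by the remaining genes show in the counts that follow. In AE9a C16 against RE, DESeq2 and RLE scaling lost the calls of Sc5d, Dhcr7 and Acly (adjusted p from 0.0602 to 0.132), and all 18 libraries in 1 fit lost those of Scd2, Pmvk, Idi1, Cyp51, Tm7sf2, Sc5d, Dhcr7 and Acly (0.0705 to 0.63). C16 against DMSO and C16 against RE in AE9a cells stayed within 1.5 times their counts of called genes under all alternatives run (15 to 20 and 21 to 24 with 1 library left out). RE against DMSO in AE9a cells gave 0 calls with all 18 libraries in 1 fit, where the coefficient of variation was 0.243, against 0.103 in AE9a libraries, 15 with the replicate block and only the 2 groups, and 5 to 10 with 1 library left out. C16 against DMSO in WT cells gave 6 by DESeq2, 3 at 1 CPM in 3 libraries or more, 7 with the replicate block, 0 with only the 2 groups, 8 with all 18 libraries, 18 with WT replicates 1 and 3 only and 0 to 5 with 1 left out. RE against DMSO in WT cells gave 3 with WT replicates 1 and 3 only. C16 against RE in WT cells gave 1 without a filter, 7 with the replicate block, 1 with only the 2 groups, 8 with all 18 libraries, 12 with WT replicates 1 and 3 only and 1 to 5 with 1 left out. AE9a against WT under DMSO gave 22 with WT replicates 1 and 3 only and 6 to 9 with 1 left out. The genotype difference in the C16 response gave 11 with the replicate block, 19 with WT replicates 1 and 3 only, 18 with AE9a C16 3 left out as well and 2 to 14 with 1 left out. The cause of these shifts was not tested. The last of these combinations and the blocks with only the 2 groups were added after the data were seen. Of the genes called, the replicate block lost Hmgcs1 in AE9a C16 against DMSO and Sc5d in AE9a C16 against RE. It lost no other call. The coefficient of variation of 0.329 in WT cells limits which changes could be called there.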

Other observations

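For 3 of the 33 genes, chosen after their values were seen, WT replicate 2 stood at the same end of its group under each treatment. Idi1 had 371, 198 and 411 CPM in WT C16 1, 2 and 3, 372, 164 and 333 CPM in WT RE 1, 2 and 3 and 286, 167 and 295 CPM in WT DMSO 1, 2 and 3, with replicate 2 the lowest each time. Fdps had 389, 507 and 395 CPM in WT C16, 389.8, 591 and 409 CPM in WT RE and 372, 458 and 359 CPM in WT DMSO libraries, with replicate 2 the highest each time. Scd2 had 1351, 1825 and 1411 CPM in WT C16, 1252, 2048 and 1363 CPM in WT RE and 1142, 1680.2 and 1231 CPM in WT DMSO libraries, again with replicate 2 the highest. Neutrophil genes summed to 3550 CPM in WT C16 2, 20929 CPM in WT RE 2 and 9297 CPM in WT DMSO 2, against 1863 to 3243 CPM in the other 6 WT libraries; their part in these values was not tested.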
